A study of Mus musculus with 16 samples.

Results

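A set of 9 genes of the NF-kappaB system were followed in mouse brain: the transcription factor subunits Nfkb1, Nfkb2, Rel, Rela and Relb, the inhibitors Nfkbia, Nfkbie and Tnfaip3, and the cytokine gene Tnf. They were taken by gene symbol from the table of raw counts, and 9 of 9 symbols were among its 54532 entries. NF-kappaB is a family of dimeric transcription factors that inhibitor proteins hold in the cytoplasm until a signal such as TNF activates the IkappaB kinases, which mark the inhibitors for degradation. Several of its own inhibitors are textbook target genes, so that the pathway limits itself. In the brain its inducible arm is best known from microglia and astrocytes, where it drives cytokine and chemokine genes. STING, a protein of the DNA-sensing route that is named in the title of the study, signals to NF-kappaB beside the interferon factors.

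The 16 bulk RNA libraries came from female mice of 9 months and formed 4 groups of 4, which combined Ch25h+/+ or Ch25h-/- with Tau- or Tau+. Ch25h encodes cholesterol 25-hydroxylase, and the -/- groups lack it. Tau- and Tau+ are the labels' words for tau status, and the tau allele, the promoter that drives it and the strain are not given in the sources used here. No treatment was named, and all groups shared sex and age. The labels give frontal cortex as the tissue and the design text gives hippocampus. Levels are given as CPM, counts per 1000000 counts of a library's scaled total. The summed level of 6 cortical marker genes was 629 to 851 CPM over the libraries, and that of 6 hippocampal markers was 150 to 290 CPM. The sum of 5 choroid plexus markers was 14.6 to 2727 CPM and differed widely within each group (14.6 to 1418 CPM in Tau- and 34.2 to 2274 CPM in Tau+ of Ch25h+/+, and 42.7 to 1613 CPM in Tau- and 54.5 to 2727 CPM in Tau+ of Ch25h-/-), and its part in the members' levels was not tested. The labels do not state that the libraries of a group came from separate mice, so the p-values measure the spread between libraries, which may be technical.

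Total counts were 15530352 to 25602500 per library. Ch25h had 0 counts in the 8 Ch25h-/- libraries and 0.216 to 1.26 CPM in the Ch25h+/+ libraries, and Prnp, which encodes the prion protein, was at 708 to 839 CPM in Tau- and 1414 to 1935 CPM in Tau+. The libraries fell into a pair of classes by the ribosomal transcript CT010467.1. Scaled by the total count, it lay at 2289 to 5684 CPM in 7 libraries, all Ch25h-/-, and at 111 to 475 CPM in the other 9, among them replicate 1 of Ch25h-/- Tau+. Library class and Ch25h genotype therefore differ in 1 library only and largely cannot be told apart. In bulk tissue, fewer cells of a type and less RNA per cell cannot be told apart either.

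The RefSeq promoter table (GRCm38.p6) holds 7 of the 9 members, and the 250 bases upstream of each start site were searched on both strands for the 10-base kappaB consensus, the DNA sequence that NF-kappaB dimers bind. At least 1 window held a match for 5 of these 7 members (Nfkb2, Rel, Nfkbia, Nfkbie and Tnfaip3), and none did for Rela and Tnf. Among all 27025 genes of the table, 4.46% held a match. The windows of 4 members are shown, those of the inhibitors Nfkbia and Nfkbie and of the subunit Rel as examples with a match, and that of Tnf as one without. Each is written 5′ to 3′ in the direction of transcription, with bases that match the consensus on either strand in capitals.
Nfkbia, chr12:55492648-55492897, minus strand: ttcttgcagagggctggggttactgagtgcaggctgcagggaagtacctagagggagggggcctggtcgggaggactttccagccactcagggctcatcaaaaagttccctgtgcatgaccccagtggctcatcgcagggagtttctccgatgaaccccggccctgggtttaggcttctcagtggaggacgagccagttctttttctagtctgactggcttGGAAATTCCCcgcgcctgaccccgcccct
Nfkbie, chr17:45555450-45555699, plus strand: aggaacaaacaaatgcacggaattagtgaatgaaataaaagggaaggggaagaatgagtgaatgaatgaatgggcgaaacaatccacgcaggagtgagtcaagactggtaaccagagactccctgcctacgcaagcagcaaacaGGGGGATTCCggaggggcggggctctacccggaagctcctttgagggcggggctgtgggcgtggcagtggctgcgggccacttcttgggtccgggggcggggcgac
Rel, chr11:23770970-23771219, minus strand: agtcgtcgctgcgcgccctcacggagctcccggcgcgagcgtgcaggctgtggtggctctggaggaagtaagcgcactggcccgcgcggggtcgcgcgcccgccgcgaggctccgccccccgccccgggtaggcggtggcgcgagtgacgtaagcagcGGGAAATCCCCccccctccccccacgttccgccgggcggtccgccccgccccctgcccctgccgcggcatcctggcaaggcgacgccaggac
Tnf, chr17:35202008-35202257, minus strand: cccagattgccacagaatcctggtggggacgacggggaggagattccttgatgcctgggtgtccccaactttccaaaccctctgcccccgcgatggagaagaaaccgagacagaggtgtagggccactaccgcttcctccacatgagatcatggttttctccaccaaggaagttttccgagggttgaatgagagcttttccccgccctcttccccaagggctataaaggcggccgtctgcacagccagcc
In Rel the capitals join 3 matches, on both strands, that overlap. Nfkb2 had matches in 3 of its 3 windows, among them GGGAATTCCC at position -39 and GGGGCTTTCC at position -11 from the first start site. A match describes the letters only, and the lack of one in the Tnf window says nothing of sites outside it.

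Levels differed widely between members. On the RPKM scale (CPM divided by the exon length in kilobases, as mean ± SD over the 16 libraries), the main IkappaB inhibitor gene Nfkbia was at 13 ± 3.19 and Rela, the activating subunit of the canonical dimer, at 9.70 ± 1.32. Nfkb1, whose product is the precursor of the p50 partner of Rela, followed at 1.86 ± 0.139 RPKM, close to Relb at 1.82 ± 0.417 RPKM. The other inhibitors and subunits lay within a narrow band, with Nfkbie at 1.07 ± 0.272, Nfkb2 at 1.04 ± 0.25, Tnfaip3 at 0.945 ± 0.139 and Rel at 0.805 ± 0.118 RPKM. Tnf was at 0.0583 ± 0.0795 RPKM. Of neighbours in this order, only Rela and Nfkb1, and Rel and Tnf, had ranges over the 16 libraries that did not overlap. By mean level, the canonical pair and its main inhibitor were the 3 highest of the 9 in this tissue, and TNF itself was near the limit of detection.

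**Figure D1:**
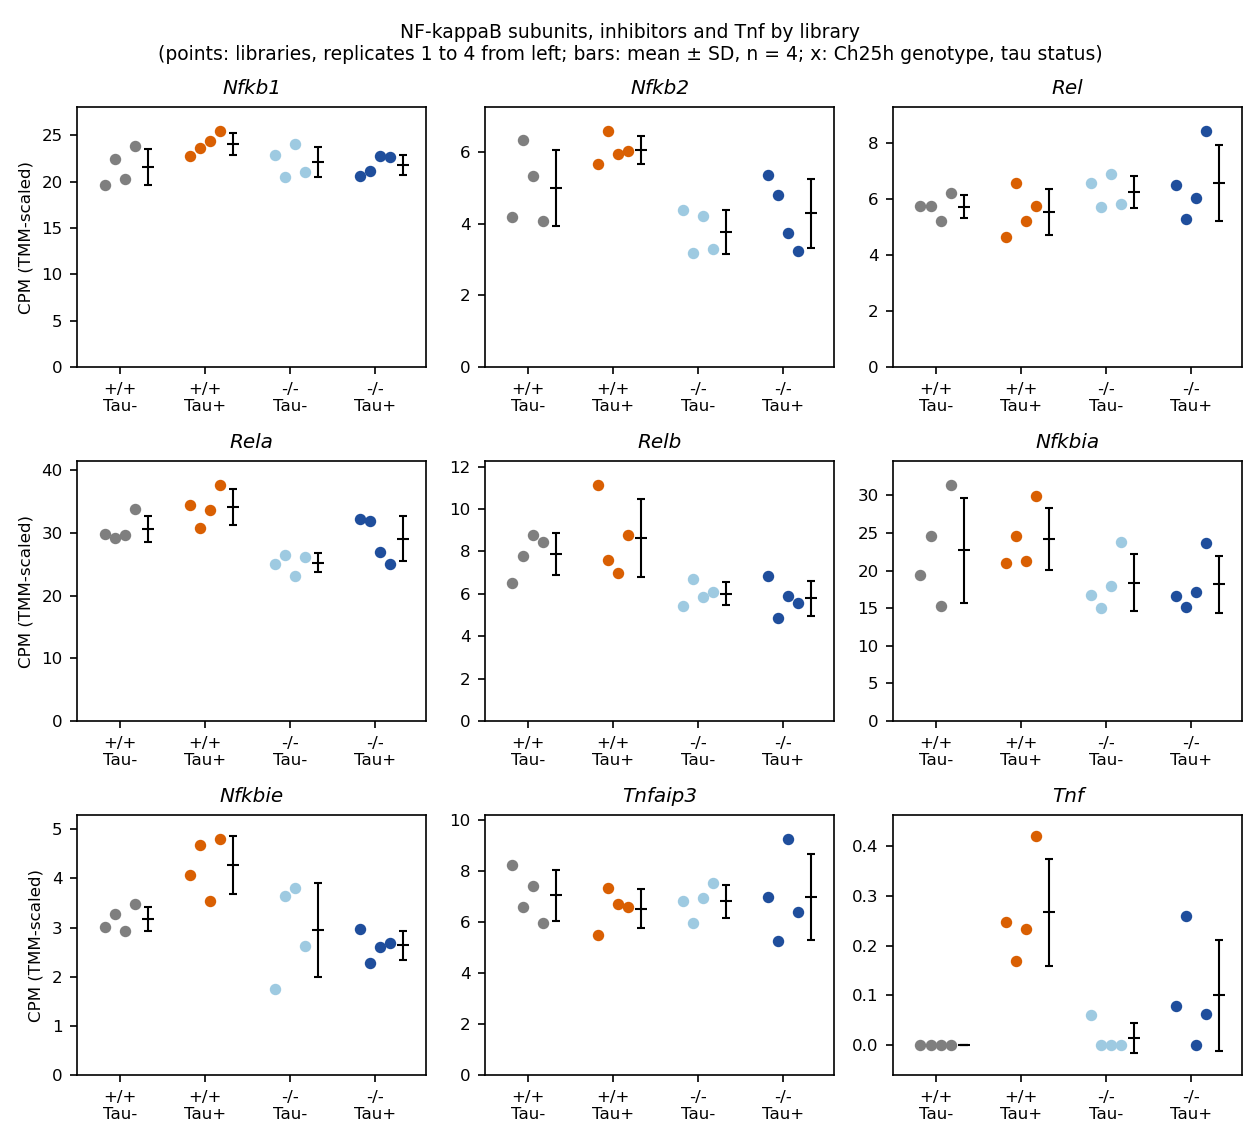
Level of each of the 9 members (y axis, CPM on TMM-scaled library sizes, linear) in the 16 libraries, grouped on the x axis by Ch25h genotype and tau status. Points are libraries and bars give the mean ± SD (n = 4). Relb, Nfkbie and Nfkb2 sit lower in Ch25h-/- Tau+ than in Ch25h+/+ Tau+ with no overlap, and Tnf is at 0 in the 4 Ch25h+/+ Tau- libraries.

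In the comparison of all genes, 8 of the 9 members had enough counts to be tested, and Tnf did not. None of the 8 passed an adjusted p of 0.05 in any of the 5 comparisons, by edgeR's quasi-likelihood test with the Benjamini-Hochberg adjustment over the 17736 genes tested. The share of all genes that passed was 1.56% for the tau effect in Ch25h+/+, 0.0395% for the tau effect in Ch25h-/-, 3.55% for Ch25h loss in Tau+, 1.03% for Ch25h loss in Tau- and 0.0338% for the interaction. Because 8 genes at such shares would give few or no calls, the count of 0 says little by itself. At an unadjusted p under 0.05 there were 1, 1, 5, 3 and 0 members in the same order, beside 9.38%, 3.68%, 23.9%, 20.9% and 4.13% of all genes. DESeq2 and limma-voom also called 0 of the 8 in each comparison but Ch25h loss in Tau+, where DESeq2 called 2 and limma-voom 3.

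**Figure D2:**
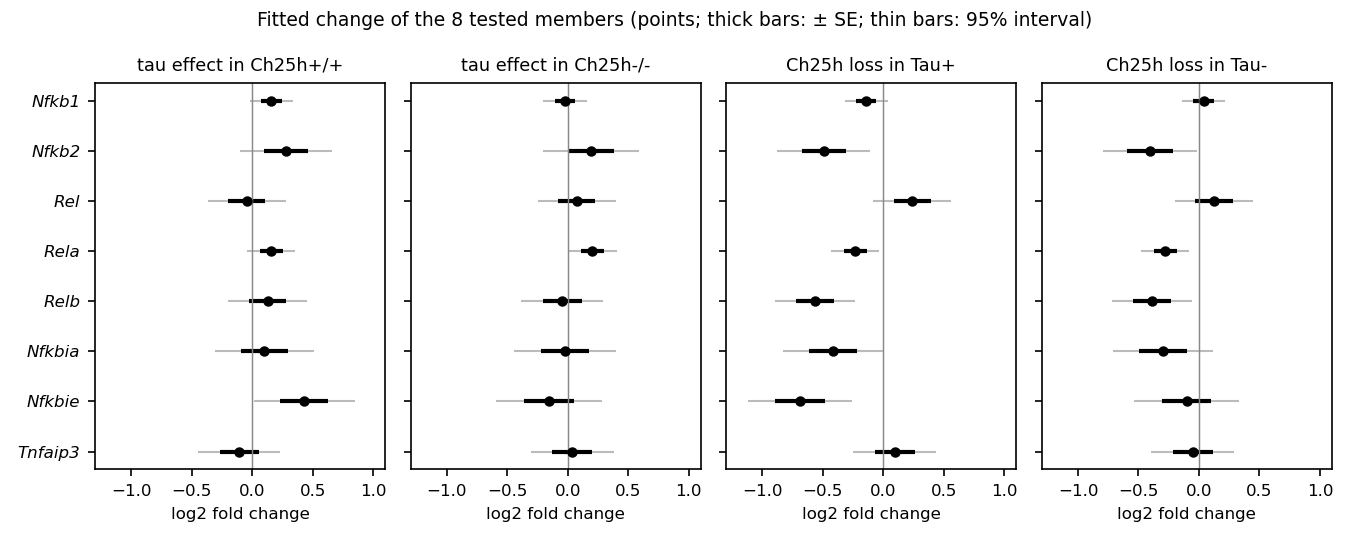
Fitted log2 fold change (x axis) of the 8 tested members (rows) in 4 comparisons (panels), with thick bars for ± SE and thin bars for the 95% interval. With Ch25h loss, the fitted values of Nfkb2, Rela, Relb, Nfkbia and Nfkbie lie below 0 in both Tau- and Tau+. The highest tau effect in Ch25h+/+ is that of Nfkbie, at 0.43.

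The ligand gene Tnf was detected mainly in one group. TNF is the cytokine that starts the canonical arm of the pathway. Its counts were 4, 4, 5 and 9 in the Ch25h+/+ Tau+ libraries and 0 in each of the 4 Ch25h+/+ Tau- libraries. They were 2, 4, 0 and 1 in Ch25h-/- Tau+, and 1, 0, 0 and 0 in Ch25h-/- Tau-. Every Ch25h+/+ Tau+ library was thus above every Ch25h+/+ Tau- library, while the Ch25h-/- Tau+ libraries overlapped both their controls and the Ch25h+/+ Tau+ libraries. In Ch25h+/+, Tnf was at 0.267 ± 0.108 CPM (SD, n = 4) in Tau+. A count of 0 over the Tau- group allows up to 0.0362 CPM, that is 3 counts over the group. The 22 counts of Tau+ were 7.33-fold this ceiling after scaling. That ratio leaves out error in the Tau+ counts and the spread between libraries, so it is no lower limit of the change. The exact two-sided permutation test of 4 against 4 libraries gave p = 0.0286, the smallest that 70 splits allow, and 0.114 after adjustment over 4 such comparisons of Tnf. Without the filter on low counts, edgeR gave Tnf an adjusted p of 0.0341 in this comparison, beside 0.961% of all genes called.

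In Ch25h-/-, the ratio of Tnf CPM between Tau+ (7 counts) and Tau- (1 count) was 6.40, with a 95% counting interval of 0.822 to 288. The exact permutation p was 0.143, and 0.19 adjusted. Between the Tau+ groups, Tnf in Ch25h-/- was 0.354 of its level in Ch25h+/+ (interval 0.128 to 0.858), and the exact permutation p was 0.114, or 0.19 adjusted. The difference was thus beyond counting error but not beyond the spread between libraries. Both Tau- groups were at or under the floor (exact permutation p = 1). These intervals and the floor cover counting error only, since reads without molecular identifiers are not independent molecules.

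Tau status moved none of the canonical subunits past the threshold. Nfkb1 was at 19.7, 22.4, 20.3 and 23.9 CPM in Ch25h+/+ Tau- and at 22.7, 23.6, 24.4 and 25.5 CPM in Ch25h+/+ Tau+. Both sets overlapped, with a log2 fold change of 0.16 (SE 0.08, edgeR adjusted p = 0.629). Rela was at 29.8, 29.3, 29.7 and 33.8 CPM in Ch25h+/+ Tau- and at 34.4, 30.8, 33.7 and 37.7 CPM in Ch25h+/+ Tau+. For Rela the log2 fold change was 0.16 (SE 0.09) there and 0.20 (SE 0.10) in Ch25h-/-, with adjusted p = 0.698 and 1 by edgeR. Its 95% interval in Ch25h-/- was 0.00 to 0.40, the one with an unadjusted p under 0.05 among the members in that genotype. Rel encodes c-Rel, a subunit best known from lymphocytes, and had tau effects of -0.04 (SE 0.15) in Ch25h+/+ and 0.07 (SE 0.15) in Ch25h-/-. The 95% intervals of Nfkb1 and Rela in Ch25h+/+ end at 0.34 and 0.35, so that tau effects above these values lie outside them.

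Among the 8 tested members, the inhibitor Nfkbie had the largest fitted tau effect in Ch25h+/+. Its product, IkappaB epsilon, holds dimers of p50, RelA and c-Rel in the cytoplasm. Nfkbie was at 3.0, 3.28, 2.93 and 3.48 CPM in Ch25h+/+ Tau- and at 4.07, 4.67, 3.53 and 4.81 CPM in Ch25h+/+ Tau+. All 4 Tau+ libraries were above all 4 Tau- libraries, a pattern that 3.89% of all tested genes shared in that direction. The log2 fold change was 0.43 (SE 0.20, edgeR adjusted p = 0.51). In Ch25h-/- the value was -0.16 (SE 0.21), and the test of the difference between the genotypes gave -0.59 (SE 0.29), with an unadjusted p of 0.0577 and an adjusted p of 1 by edgeR. The other inhibitors had tau effects in Ch25h+/+ of 0.10 (SE 0.20) for Nfkbia and -0.11 (SE 0.16) for Tnfaip3, which encodes A20, a ubiquitin-editing enzyme that shuts the pathway off.

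With Ch25h loss in Tau+, 6 of the 8 tested members had fitted values below 0, as did 49.3% of all genes tested, and the median log2 fold change was -0.33 against 0.00 over all genes tested. None of these passed the threshold. Relb encodes the noncanonical subunit that pairs with p52, and was at 11.1, 7.61, 6.97 and 8.78 CPM in Ch25h+/+ Tau+ and at 6.85, 4.87, 5.91 and 5.56 CPM in Ch25h-/- Tau+. Its log2 fold change was -0.56 (SE 0.16, 95% interval -0.89 to -0.23), with an edgeR adjusted p of 0.0538. The groups did not overlap, but the highest Ch25h-/- library and the lowest Ch25h+/+ library lay close together. Nfkb2, the gene of the p52 precursor, was at 5.67, 6.60, 5.95 and 6.02 CPM in Ch25h+/+ Tau+ and at 5.36, 4.81, 3.75 and 3.25 CPM in Ch25h-/- Tau+. Here too the groups did not overlap, and the log2 fold change was -0.49 (SE 0.18, edgeR adjusted p = 0.119). On chromosome 19, 6.52% of the exon bases of Nfkb2 are shared with Psd on the opposite strand. Psd reached 18490 counts where Nfkb2 reached 157, and since the use of strand in counting is not given in the sources used here, the level of Nfkb2 is uncertain.

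Among the 8 tested members, Nfkbie had the lowest fitted value with Ch25h loss in Tau+. From the Ch25h+/+ Tau+ values above it went to 2.97, 2.27, 2.61 and 2.69 CPM in Ch25h-/- Tau+, with no overlap. Its log2 fold change was -0.69 (SE 0.20, 95% interval -1.12 to -0.26), with an edgeR adjusted p of 0.0644. Over all genes tested, 5.74% had all Ch25h-/- Tau+ libraries below all Ch25h+/+ Tau+ libraries, against 3 of the 8 members. The tau effect on Nfkbie and this comparison share the Ch25h+/+ Tau+ libraries, where it was highest.

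Other filters and tools, and fits that leave out 1 library, brought some of these genes past the threshold in Tau+. With a mean of at least 50 counts Relb passed (edgeR adjusted p = 0.0488, beside 5.34% of all genes). DESeq2 called Relb and Nfkbie (adjusted p = 0.0191 and 0.028, beside 9.79% of genes), and limma-voom called Nfkb2, Relb and Nfkbie (adjusted p = 0.0451, 0.0361 and 0.028, beside 10.6% of genes). Without replicate 1 of Ch25h-/- Tau+, the one library of its genotype outside the class rich in ribosomal RNA, edgeR called the same 3 genes at adjusted p = 0.0454, 0.0236 and 0.043, and the share of all genes called rose to 9.42%. Leaving out replicate 2 or 3 of Ch25h+/+ Tau+ brought in Relb alone (adjusted p = 0.0353 and 0.0368), and leaving out replicate 1 of Ch25h-/- Tau- brought in Nfkbie alone (0.0366). A call for these 3 genes therefore rests on the tool and on single libraries. Replicate 1 of Ch25h-/- Tau+ was the highest of its group for Nfkb2, Relb and Nfkbie (5.36, 6.85 and 2.97 CPM). The part of its library class in this was not tested.

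The other tested members had fitted values nearer 0 with Ch25h loss in Tau+. Nfkbia was at 21.0, 24.6, 21.3 and 30.0 CPM in Ch25h+/+ Tau+ and at 16.6, 15.2, 17.1 and 23.7 CPM in Ch25h-/- Tau+. The groups overlapped, and the log2 fold change was -0.42 (SE 0.20, edgeR adjusted p = 0.204). Nfkbia also varied within groups, with a coefficient of variation of 17.2% to 30.6%, against 4.87% to 9.00% for Nfkb1. Rela was at 32.2, 32.0, 27.0 and 25.0 CPM in Ch25h-/- Tau+, with a change of -0.23 (SE 0.09, edgeR adjusted p = 0.147) and overlap with Ch25h+/+ Tau+. Nfkb1 was at 20.6, 21.2, 22.8 and 22.7 CPM there, and its change was -0.14 (SE 0.08, edgeR adjusted p = 0.32). Rel and Tnfaip3 had fitted values above 0, at 0.24 (SE 0.15) and 0.09 (SE 0.16), with adjusted p = 0.355 and 0.762. Rel ranged from 5.26 to 8.43 CPM and Tnfaip3 from 5.26 to 9.26 CPM in Ch25h-/- Tau+, and both overlapped with Ch25h+/+ Tau+.

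In Tau-, Nfkb2, Relb, Nfkbia and Rela had the lowest fitted values with Ch25h loss. The median over the 8 members was -0.19 against 0.01 over all genes tested. Rela was at 25.1, 26.5, 23.2 and 26.2 CPM in Ch25h-/- Tau-, below all 4 Ch25h+/+ Tau- libraries given above, with a log2 fold change of -0.28 (SE 0.09, edgeR adjusted p = 0.114). It was the one member with no overlap in this comparison, a pattern in that direction of 8.58% of all tested genes. Relb was at 5.42, 6.71, 5.85 and 6.08 CPM against 6.51, 7.77, 8.76 and 8.46 CPM in Ch25h+/+ Tau-. Relb overlapped in a single library, and its change was -0.39 (SE 0.16, edgeR adjusted p = 0.17). Nfkb2 was at 4.40, 3.18, 4.22 and 3.29 CPM against 4.20, 6.34, 5.35 and 4.08 CPM, with a change of -0.40 (SE 0.19, edgeR adjusted p = 0.224). Nfkbie spread from 1.75 to 3.80 CPM in Ch25h-/- Tau- and had a change of -0.10 (SE 0.21). The interaction test called none of the 8 members, and its lowest unadjusted p was that of Nfkbie. The difference between the tau states was therefore not beyond the spread between libraries for any of them.

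The 4 members of highest GC content had fitted values below 0 with Ch25h loss in both tau states, none of them past the threshold. Nfkb2 and Rela have 59.4% GC in their longest transcript, Relb 56.8%, Nfkbie 55.4% and Nfkbia 52.9%, while Tnfaip3 has 47.1%, Nfkb1 44.9% and Rel 42.5%. Over the 8 members the correlation of GC content with the change was -0.78 in Tau+ and -0.90 in Tau-, a description over genes that share the same libraries. Over the 17598 tested genes with a known GC content it was -0.36 and -0.39. The median of all genes at 55% GC and over was -0.17 in Tau+ and -0.19 in Tau-, and that of genes under 50% was 0.11 and 0.12. The 4 members at 55% and over had medians of -0.53 and -0.33, below those of their class. With GC-corrected offsets these medians were -0.36 and -0.13, against 0.01 and 0.00 over all genes of their class, and the correlation over the 8 members was -0.51 and -0.29. Across libraries, the rank correlation of each gene's deviation from its mean with GC content was -0.40 to -0.26 in the 7 libraries rich in ribosomal RNA and 0.087 to 0.37 in the other 9.

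**Figure D3:**
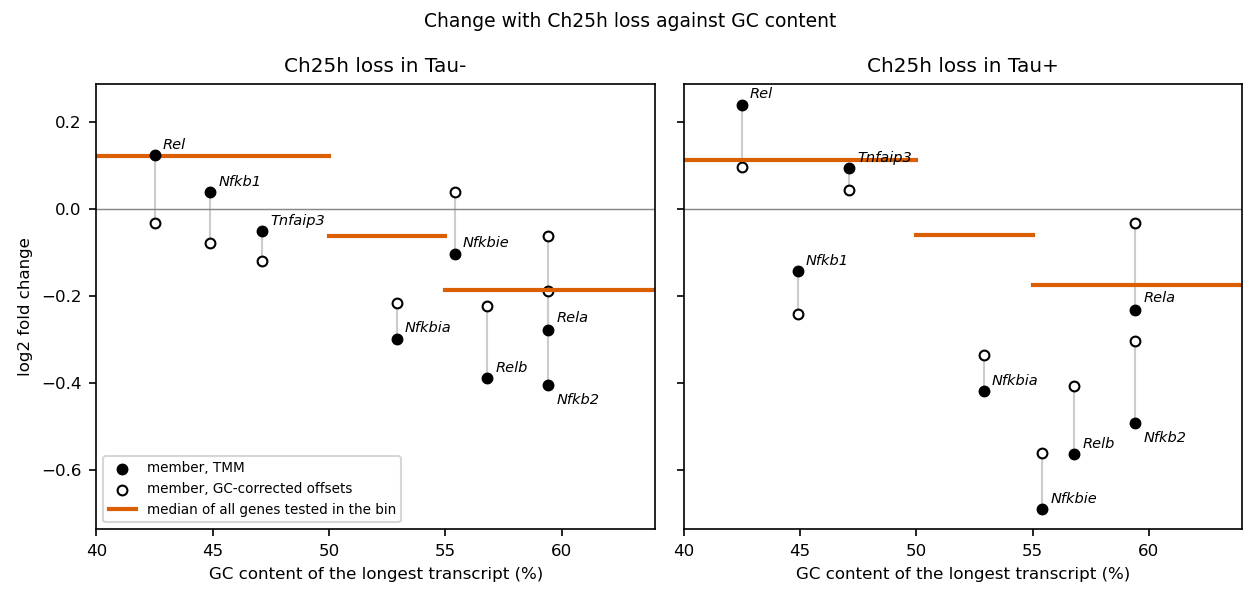
Log2 fold change with Ch25h loss (y axis) of the 8 tested members against the GC content of their longest transcript (x axis, percent), in Tau- (left) and Tau+ (right). Filled points are the values with TMM normalization, open points those with GC-corrected offsets, and orange lines the medians of all tested genes under 50%, from 50% to 55%, and at 55% and over. The 4 members at 55% and over move upward after correction, and in Tau+ Nfkbie (-0.56) and Relb (-0.41) remain the lowest.

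With offsets corrected for GC content, the changes in Tau+ were -0.56 (SE 0.20) for Nfkbie, -0.41 (SE 0.14) for Relb, -0.30 (SE 0.19) for Nfkb2 and -0.03 (SE 0.08) for Rela. No member passed, with edgeR adjusted p of 0.172 or more for these 4, and 1.13% of all genes did. In Tau- the corrected values were -0.22 (SE 0.14) for Relb, -0.19 (SE 0.19) for Nfkb2, -0.06 (SE 0.08) for Rela and 0.04 (SE 0.20) for Nfkbie. With a covariate for library class the values in Tau+ were -0.52 (SE 0.33) for Nfkbie, -0.33 (SE 0.24) for Relb, -0.18 (SE 0.27) for Nfkb2 and -0.09 (SE 0.14) for Rela, and 0.0564% of all genes passed. In Tau- the covariate turned Nfkb2 to 0.042 and Nfkbie to 0.132, while Relb and Rela stayed below 0. The standard errors grew since class and genotype nearly coincide. The part of library class in these differences was not tested beyond these fits.

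Microglial and astrocyte marker genes also differed between the groups. Over 14 microglial markers the summed level was 429 to 448 CPM in Ch25h+/+ Tau-, 675 to 846 CPM in Ch25h+/+ Tau+, 385 to 444 CPM in Ch25h-/- Tau- and 404 to 515 CPM in Ch25h-/- Tau+. In edgeR's test 7 of the 14 rose with tau in Ch25h+/+ and 8 fell with Ch25h loss in Tau+, and none was at 0 in any group. The 6 astrocyte markers summed to 2966 to 3270 CPM in Ch25h+/+ Tau-, 2765 to 4990 CPM in Ch25h+/+ Tau+, 3247 to 3995 CPM in Ch25h-/- Tau- and 3418 to 4145 CPM in Ch25h-/- Tau+. The Ch25h+/+ Tau+ range overlapped with those of the other 3 groups. All 6 had fitted values above 0 for tau in Ch25h+/+ and 5 were below 0 with Ch25h loss in Tau+, and none was at 0 in any group. The 1 call in each was Gfap, the marker of reactive astrocytes, which rose with tau by 2.46 (SE 0.27) and fell with Ch25h loss in Tau+ by 1.96 (SE 0.27) on the log2 scale, with edgeR adjusted p = 6.13e-05 and 0.000767. Rel and Tnfaip3 aside, the group means of all members were highest in Ch25h+/+ Tau+, as were the means of both sums. The mean sums of 4 oligodendrocyte markers (3087 CPM) and 5 endothelial markers (206 CPM) were highest there too, against 2197 to 2576 and 178 to 182 CPM in the other groups. Their medians were 0.29 and 0.16 for tau in Ch25h+/+ and -0.28 and -0.13 with Ch25h loss in Tau+, with 4 of 4 and 4 of 5 genes above 0 in the first and as many below 0 in the second. By edgeR 0 of these 9 were called in either (1 and 3 at an unadjusted p under 0.05), while DESeq2 called 1 and limma-voom 3 with Ch25h loss in Tau+ and both 0 for tau. The part of these cell types in the levels of the members was not tested. The 5 border macrophage markers summed to 5.09 to 19.0 CPM over the libraries. All 5 had fitted values above 0 for tau in Ch25h+/+ (median 0.64) and 4 were below 0 with Ch25h loss in Tau+ (median -0.32), with 0 called in either by edgeR, DESeq2 or limma-voom (2 and 1 at an unadjusted edgeR p under 0.05). Those of T cells (6 genes), B cells (4 genes) and neutrophils (4 genes) reached no more than 3.28, 1.42 and 1.85 CPM, with Cd3d and Ms4a1 at 0 in both Ch25h-/- groups.

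Around the members, the pathway was described by 4 lists of other genes. Of 16 genes for ligands and receptors upstream of NF-kappaB, mostly of the TNF type, 12 were tested, of which Il1a, Il1b and Il1r1 belong to the interleukin-1 family. By edgeR the TNF receptor gene Tnfrsf1a rose with tau in Ch25h+/+, from 11.8 ± 1.85 to 19.8 ± 5.38 CPM (SD, n = 4), a log2 fold change of 0.74 (SE 0.16, edgeR adjusted p = 0.0167). It was the one call in the list (8.33% against 1.56% of all genes), and the list's median was 0.57 against -0.01. The call was lost with only the 8 libraries compared (adjusted p = 0.101) and without any of 4 libraries, replicate 4 of Ch25h+/+ Tau+ or replicate 1, 2 or 4 of Ch25h+/+ Tau-, with adjusted p up to 0.0759. With Ch25h loss in Tau+, Tnfrsf1a (-0.76, SE 0.16) and Ltbr, the lymphotoxin beta receptor that feeds the noncanonical arm (-0.72, SE 0.16), fell, with edgeR adjusted p = 0.0162 and 0.0223 (16.7% of the list against 3.55% of all genes). Both calls were lost with GC-corrected offsets, with the covariate for library class, with only the 8 libraries compared, and without replicate 4 of Ch25h+/+ Tau+ or replicate 3 of Ch25h-/- Tau+. In the first 3 of these fits Tnfrsf1a was at -0.62 (SE 0.16), -0.76 (SE 0.26) and -0.76 (SE 0.17) and Ltbr at -0.50 (SE 0.15), -0.66 (SE 0.26) and -0.72 (SE 0.17), and the list's median was -0.43, -0.62 and -0.41. Tnfrsf1b, the second TNF receptor, was at 0.55 (SE 0.14) and -0.48 (SE 0.14) in these comparisons, with adjusted p = 0.0596 and 0.0652. In Tau+, 12 of the 12 tested genes of the list had fitted values below 0 with Ch25h loss, beside 49.3% of all genes, with a median of -0.41 against 0.00. The comparisons share the Ch25h+/+ Tau+ libraries, and the microglial markers moved in the same directions.

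Adaptors and kinases carry the signal from the receptors to NF-kappaB. Of 28 such genes, 28 were tested, and edgeR called 0 for tau in Ch25h+/+ (2 at an unadjusted p under 0.05, and 0 by DESeq2 and by limma-voom), with a median of 0.01. With Ch25h loss in Tau+ edgeR called 1 (3.57% against 3.55% of all genes), 10 had an unadjusted p under 0.05 beside 23.9% of all genes, and 15 were above 0 and 13 below. DESeq2 and limma-voom each called 4 there, beside 9.79% and 10.6% of all genes, of which Chuk, Map3k7 and Tab3 were higher by both, while Myd88 was lower by DESeq2 and Rbck1 by limma-voom. The kinase genes Ikbkb and Ikbkg, for the catalytic beta subunit and the scaffold of the IkappaB kinase, had tau effects in Ch25h+/+ of -0.08 (SE 0.08) and -0.03 (SE 0.10). Map3k14, the kinase of the noncanonical arm, was at 0.00 (SE 0.21). Chuk, for the alpha kinase subunit, rose with Ch25h loss in Tau+ from 29.2 ± 3.03 to 39.6 ± 0.971 CPM (log2 fold change 0.44, SE 0.11, edgeR adjusted p = 0.0378), the 1 call by edgeR. Its tau effects were -0.32 (SE 0.11, edgeR adjusted p = 0.241) in Ch25h+/+ and -0.22 (SE 0.11, adjusted p = 1) in Ch25h-/-. Chuk lies on chromosome 19, 9.60 Mb from Ch25h, and the linked position and the genotype cannot be told apart. Nfkb2 and Rela lie on the same chromosome, 11.8 and 28.8 Mb from Ch25h.

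Of 19 other inhibitors and regulators, 18 were tested and edgeR called 1 with Ch25h loss in each tau state (5.56%, against 3.55% of all genes in Tau+ and 1.03% in Tau-). Bcl3, an atypical IkappaB protein that binds p50 and p52 homodimers, fell in Tau+ from 1.96 ± 0.651 to 0.689 ± 0.299 CPM (log2 fold change -1.51, SE 0.37, edgeR adjusted p = 0.0352). The Bcl3 call was lost without replicate 3 or replicate 4 of either Tau+ group, with GC-corrected offsets, with class as a covariate and with only the 8 libraries compared, and DESeq2 gave Bcl3 no adjusted p. Its tau effect in Ch25h+/+ was 1.26 (SE 0.36, adjusted p = 0.111). Tnip1, a partner of A20, fell in Tau- (-0.34, SE 0.08, edgeR adjusted p = 0.0476). Tnip1 did not pass without the filter on low counts, with GC-corrected offsets or with class as a covariate. It also did not pass when 1 library was dropped in 13 of 16 cases, which included each Tau- library but replicate 4 of Ch25h-/-. The IkappaB genes Nfkbib and Nfkbiz were at -0.07 (SE 0.09) and -0.28 (SE 0.22) with Ch25h loss in Tau+. For this list the medians were -0.06 in Tau+ and -0.08 in Tau-, near the 0.00 and 0.01 of all genes.

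Textbook target genes of NF-kappaB were the list with the most calls. Of 28 such genes 19 were tested, and 3 rose with tau in Ch25h+/+ (15.8% against 1.56% of all genes). They were the chemokine genes Ccl4 (log2 fold change 3.93, SE 0.66) and Cxcl10 (2.87, SE 0.56), and Csf1 (0.72, SE 0.10), which encodes a growth factor of microglia. Ccl4 went from 0.062 ± 0.0459 to 1.01 ± 0.325 CPM, Cxcl10 from 0.400 ± 0.218 to 2.97 ± 1.04 CPM and Csf1 from 23.2 ± 1.44 to 38.1 ± 5.61 CPM, with edgeR adjusted p = 0.00238, 0.00826 and 0.000348. With Ch25h loss in Tau+, 5 fell (26.3% against 3.55% of all genes), namely these 3 with Plau and Irf1. Both comparisons share the Ch25h+/+ Tau+ libraries, and the microglial markers moved in the same directions (medians 0.57 and -0.50). Plau, the urokinase gene, had a change of -1.04 (SE 0.25) and Irf1, an interferon regulatory factor, -0.50 (SE 0.13), with edgeR adjusted p = 0.0327 and 0.037. Csf1 fell by 0.64 (SE 0.10) on the log2 scale (edgeR adjusted p = 0.00183). Without the filter on low counts Irf1 did not pass (adjusted p = 0.0597), and DESeq2 gave Ccl4 no adjusted p in this comparison. For tau in Ch25h+/+, DESeq2 called 7 and limma-voom 8, beside 2.39% and 2.81% of all genes. None of the 19 was called for tau in Ch25h-/- by edgeR, DESeq2 or limma-voom, where 0.0395%, 0.079% and 0.0338% of all genes passed, and 1 had an unadjusted edgeR p under 0.05, Ccl4 (2.90, SE 1.14, unadjusted p = 0.0206). The difference between the genotypes was called for 0 of the 19 by edgeR and by limma-voom, beside 0.0338% of all genes by each, with 4 at an unadjusted edgeR p under 0.05 beside 4.13%. DESeq2 called 1, Csf1 (-0.66, SE 0.15, adjusted p = 0.0103), beside 0.31% of all genes. Over the 4 lists, 9 genes were called with Ch25h loss in Tau+, 3 with GC-corrected offsets (Ccl4, Csf1 and Plau) and 0 with the covariate for library class. The median of the target genes was -0.50, and -0.35 and -0.45 in these fits. Csf1 was the 1 call left of these 9 with only the 8 libraries compared, without replicate 4 of Ch25h+/+ Tau+ and without replicate 3 of Ch25h-/- Tau+. When each of the 16 libraries was dropped in turn, the calls of Cxcl10, Chuk, Plau and Irf1 in this comparison held in 5, 9, 11 and 12 cases, and that of Csf1 in 16. The tau calls of Ccl4, Cxcl10 and Csf1 in Ch25h+/+ held in 16 of 16.

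**Figure D4:**
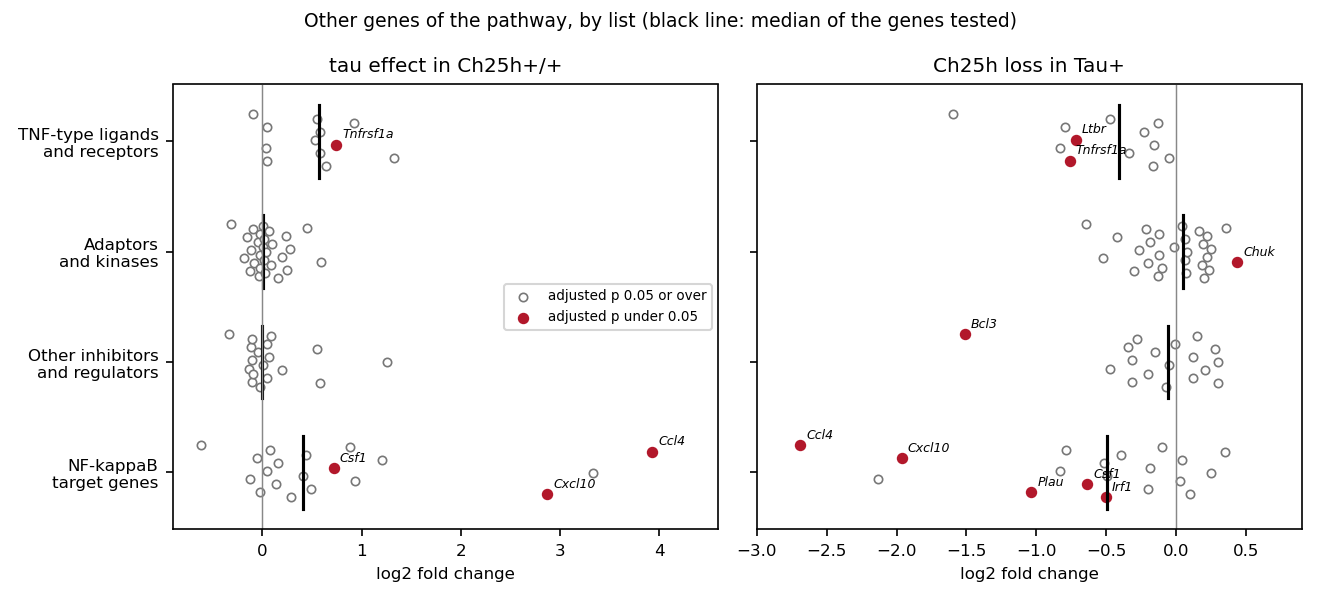
Log2 fold change (x axis) of the tested genes in 4 lists of other pathway genes (rows), for the tau effect in Ch25h+/+ (left) and Ch25h loss in Tau+ (right). Each circle is a gene, red where its adjusted p is under 0.05, and black lines are list medians. Receptors and targets lie to the right at left (medians 0.57 and 0.41) and to the left at right (medians -0.41 and -0.50), while adaptors, kinases and inhibitors centre near 0.

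Nfkb1 lies on chromosome 3 at 135584655 to 135691547 (GRCm38, minus strand), where other genes differed by tau status. Of the 98 genes tested within 10 Mb of it, 7 rose and 1 fell with tau in Ch25h+/+, or 8.16% against 1.56% of all genes, and 2 rose in Ch25h-/- (2.04% against 0.0395%). Gbp2b, a guanylate-binding protein gene 7.01 Mb away, and 4930590L14Rik, 5.37 Mb away, were the 2 called in both genotypes. Gbp7, Gbp3 and Gbp2, which also rose in Ch25h+/+, lie with Gbp2b at 6.95 to 7.04 Mb. Alpk1 and Tifa, which rose too, lie at -7.91 and -7.79 Mb, so the genes called are not all separate positions. Gbp2b was at a mean of 0 and 0.0151 CPM in the Tau- groups and at 2.87 and 1.89 CPM in Tau+, and 4930590L14Rik was at 0 in Tau- and at 0.792 and 1.19 CPM in Tau+. Within 5 Mb of Nfkb1, edgeR called 0 of 52 genes in either genotype, with 9 at an unadjusted p under 0.05 in Ch25h+/+ and 3 in Ch25h-/-. DESeq2 called 1 of the 52 and limma-voom 3 in Ch25h+/+, and both called 0 in Ch25h-/-, beside 2.39% and 2.81% of all genes in Ch25h+/+ and 0.079% and 0.0338% in Ch25h-/-. The nearest tested neighbours, Manba and Oaz2-ps on one side and Slc39a8 and Bank1 on the other, had tau effects in Ch25h+/+ of 0.17, -0.01, 0.07 and -0.04, beside the 0.16 of Nfkb1. Among the others, chosen here after their values were seen, Alpk1 (2.02, SE 0.30) and Tifa (1.23, SE 0.20) rose in Ch25h+/+, with edgeR adjusted p = 0.000898 and 0.00201. Both encode proteins of a sensing route for bacterial sugars that leads to NF-kappaB.

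**Figure D5:**
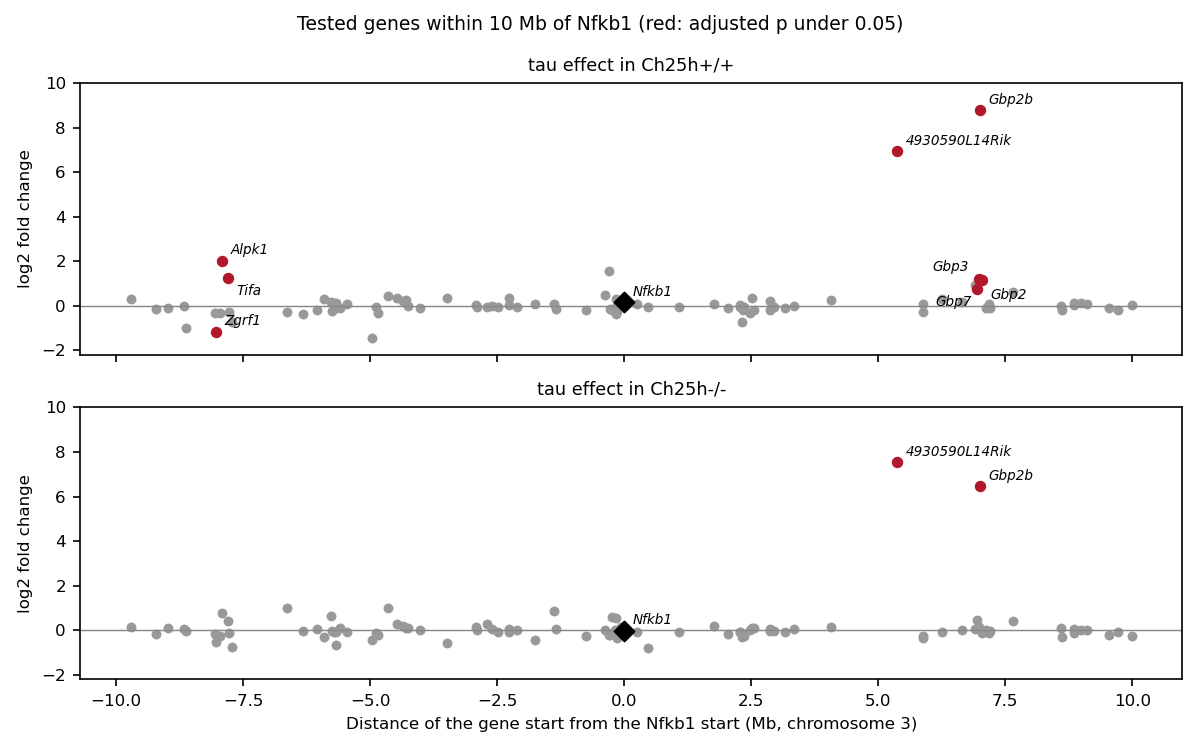
Tau effect (y axis, log2 fold change) of the 98 genes tested within 10 Mb of Nfkb1 and of Nfkb1 itself (black diamond), by the distance of their starts (x axis, Mb), in Ch25h+/+ (top) and Ch25h-/- (bottom). Red points passed an adjusted p of 0.05. Fitted values of Gbp2b and 4930590L14Rik, at or near 0 counts in Tau-, depend on the fit's prior count and are no measure of size. Nfkb1 stays at 0.16 and -0.02.

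Across the 16 libraries the members followed different genes. By Pearson correlation of log2(CPM + 0.5), the genes most like Relb were Ccdc12, Nudc and Akt1s1 (0.95, 0.94 and 0.94). Rela was closest to Pex26 (0.92), Nfkbie to Rom1 (0.92), Nfkb2 to Foxl2 (0.87), Nfkbia to Sgk1 (0.88), Rel to Fras1 (0.84), Nfkb1 to Cyp2d22 (0.82) and Tnfaip3 to Sec14l3 (0.75). Among the members the highest values were those of Relb with Nfkbie (0.68), Nfkb2 with Rela (0.65) and Rela with Relb (0.64), and the lowest was that of Rel with Rela (-0.56). The 16 libraries differ in class and depth, which enter every correlation, and these values are descriptions.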

How the data were processed

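The authors deposited 1 table of raw counts per gene for 16 libraries, made per the labels' protocols from total RNA with a SMARTer mRNA kit. The submitters' processing notes name STAR 2.7 and the builds GRCm38 and mm10, and the counting program and its use of strand are not given in the sources used here. All 16 sample columns were used and 0 were left out. Groups follow the genotype labels, and replicate numbers only name libraries.

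The members and gene lists were chosen with earlier results of these data known. Named list genes were up to 3 per list, comparison and direction with the smallest adjusted p past the threshold, plus fixed receptor, kinase and inhibitor genes. Among those named beyond this rule were Irf1 and Cxcl10 with Ch25h loss in Tau+, and Map3k7, Tab3, Myd88 and Rbck1.

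Counts were fitted with edgeR 4.0.16 in R 4.3.3 (TMM, filterByExpr, two-sided quasi-likelihood test) in 1 fit of 4 group means, adjusted by Benjamini-Hochberg over 17736 genes at 0.05. The code was tested on simulated counts. CPM uses TMM-scaled library sizes, and RPKM divides it by the union exon length from GENCODE M21 (GRCm38). Tnf was compared by exact permutation of CPM. Alternatives were relative log expression size factors, other filters, DESeq2 1.42.0, limma-voom with quality weights (limma 3.58.1), 1 surrogate variable (sva 3.50.0), a covariate for library class (CT010467.1 at 1000 CPM or more), offsets corrected for GC content by loess (span 0.5), the 8 libraries compared alone, and each library left out.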

Additional observations from a re-analysis of the deposited data

Results flagged for a closer look

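Of 35 member and group combinations with 4 libraries that were screened for a value far from the other 3 (the gap to its neighbour over the range, past Dixon's 95% limit), 2 stood out, and chance alone gives about 1 in 20. Rela in Ch25h+/+ Tau- replicate 4 was at 33.8 CPM, with a ratio of 0.872, against 29.3 to 29.8 CPM in the other 3 libraries of its group. Tnf in Ch25h-/- Tau- replicate 1 was at 0.0602 CPM, from 1 count, against 0 in the other 3. With 3 libraries at 0 any count gives that ratio its highest value, so it says nothing of how far this library stands apart.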

How the results depend on the processing

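Depth limits Tnf most, at 0 to 9 counts a library. No paired analysis was possible because the labels carry no replicate numbers shared between groups. Members called in Ch25h loss in Tau+ went from 0 to 1 with a mean of at least 50 counts, to 2 with DESeq2 and to 3 with limma-voom, and lay between 0 and 3 over the 16 fits that leave out 1 library. For the tau effect in Ch25h+/+ there was 1 call without the filter on low counts, of Tnf (log2 fold change 5.40, edgeR adjusted p = 0.0341). With 0 counts in Ch25h+/+ Tau-, this fold change depends on the fit's prior count and is no measure of size. In every other comparison and setting run, 0 members were called.

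Pathway list calls for tau in Ch25h+/+ were 4, and 7 without the filter, 10 with DESeq2, 13 with limma-voom and 3 to 8 with 1 library left out. For Ch25h loss in Tau+ they were 9, and 15 with DESeq2, 22 with limma-voom, 0 with the class covariate, 3 with GC-corrected offsets, 1 with only the 8 libraries and 1 to 15 with 1 left out. For Ch25h loss in Tau- there was 1, and 0 without the filter, with the class covariate and with GC-corrected offsets, 4 with DESeq2, 5 with limma-voom, 3 with only the 8 libraries and 0 to 7 with 1 left out. DESeq2 gave 1 for the interaction, Csf1. Of the genes near Nfkb1, the share called for tau fell to 0% with a window of 5 Mb in both genotypes. The causes were not tested.

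Leaving out 1 library, the Tnf difference was 0.216 to 0.3 CPM for tau in Ch25h+/+ (exact permutation p = 0.0286 each time, the smallest that 3 against 4 libraries allow, which shows nothing of stability), 0.0318 to 0.118 for tau in Ch25h-/- (exact p = 0.0286, the same limit, without replicate 3 of Ch25h-/- Tau+), -0.22 to -0.116 for Ch25h loss in Tau+ and 0 to 0.0201 for Ch25h loss in Tau-.

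Some signs turned. With limma-voom Rel was at 0.0053 for tau in Ch25h+/+, Nfkb1 at 0.00057 and Nfkbia at 0.0155 for tau in Ch25h-/-, and Rela at -0.0281 for the interaction. With the class covariate Nfkb1 was at 0.0055 and Nfkbia at 0.0199 for tau in Ch25h-/-, Nfkb1 at -0.0723, Nfkb2 at 0.042 and Nfkbie at 0.132 for Ch25h loss in Tau-, and Rela at -0.0073 for the interaction. With GC-corrected offsets Nfkb1 was at -0.0781, Rel at -0.0314 and Nfkbie at 0.0387 for Ch25h loss in Tau-. With 1 library left out, tau in Ch25h+/+ ranged from -0.0457 to 0.296 for Nfkbia, -0.127 to 0.0365 for Rel and -0.0091 to 0.216 for Relb. Tau in Ch25h-/- ranged from -0.0616 to 0.0143 for Nfkb1, -0.179 to 0.121 for Nfkbia, -0.0713 to 0.154 for Rel, -0.149 to 0.0202 for Relb and -0.136 to 0.14 for Tnfaip3. Ch25h loss in Tau- ranged from -0.0068 to 0.0898 for Nfkb1, -0.244 to 0.0833 for Nfkbie and -0.124 to 0.0303 for Tnfaip3, and Tnfaip3 in Tau+ from -0.0808 to 0.19. The interaction ranged from -0.234 to 0.0132 for Nfkb2, -0.318 to 0.0162 for Nfkbia, -0.0338 to 0.193 for Rel, -0.0219 to 0.101 for Rela and -0.0344 to 0.242 for Tnfaip3.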
